A study of Mus musculus with 18 samples.

Results

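The transcripts described here are those of 10 genes of heart muscle, *Myh6*, *Myh7*, *Actc1*, *Tnnt2*, *Tnni3*, *Myl7*, *Myl4*, *Nppa*, *Ryr2* and *Csrp3*, measured in the mouse aorta. They were taken by symbol from 55453 gene symbols in 2 tables of read counts, and they were chosen by their counts in earlier results of these same libraries, in which they varied from library to library and between genotypes. Their differences between genotypes are therefore given as a description, and nothing is read from the calls that the fits between genotypes made for them. All 10 symbols were present in both tables.

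The study edited a CArG box, the binding motif of serum response factor, in the promoter of *Tspan2* and sequenced poly(A) RNA of single aortae from edited mice and wild-type mice. In the first experiment, called HDR here, Cas9 with a single guide RNA and a single-stranded donor had replaced 3 bases of the CArG box by homology-directed repair. It comprised 5 wild-type and 5 homozygous (*sg/sg*) aortae of 12-week-old females and males, labelled C57BL/6. In the second, prime editor 2 (PE2, a reverse transcriptase joined to a Cas9 that nicks DNA) with a pegRNA had changed 1 base of the same box. It comprised 4 wild-type and 4 homozygous (*peg/peg*) aortae of 8-week-old mice labelled FVB/N/B6(Cg)-Tyrc-2J/J, all *peg/peg* mice being female and 1 wild type, number 4, being male. The mutation is carried in every cell, both sets of controls are mice without the edit, and no transgene or Cre driver is involved. The methods describe removal of the tissue around the vessel before RNA extraction, and they name the same mixed B6(Cg)-Tyr and FVB donors of oocytes for both edits. The columns of the HDR table are numbered 2 to 6 in each genotype. These numbers are used below as names of libraries, since they could not be tied to a sex or to a numbered sample.

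Heart muscle contracts when myosin heavy chains pull on actin filaments. The troponin complex on the actin filament makes this pull depend on calcium, which the ryanodine receptor releases from internal stores. In the adult mouse, *Myh6* encodes the main heavy chain of the heart, while *Myl7*, *Myl4* and *Nppa* are made mainly by the atria. Muscle of cardiac type also surrounds the large veins near the heart in rodents. Several of these genes are not confined to the heart, since *Ryr2* and *Actc1* are also transcribed in smooth muscle, and serum response factor, acting through CArG boxes, is a known regulator of many genes of cardiac, skeletal and smooth muscle. In a whole piece of tissue, fewer cells of a type and less RNA per cell cannot be told apart.

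Promoter sequences are shown for 4 of the 10 genes, because the edit of the study lies in a CArG box. *Actc1* and *Myl7* were the 2 of 10 genes with a consensus CArG box in the RefSeq promoter window of 250 bases before to 50 bases after the start of transcription. *Tnnt2* and *Myh6*, shown for comparison, had no exact match to the consensus, and their highest PE2 levels lay in different *peg/peg* libraries. CArG-like boxes, which the paper also considered and which differ from the consensus by a substitution, were not searched for. The windows are therefore not shown to be free of them. Each line holds the 250 bases before the start, from RefSeq on GRCm38.p6, 5′ to 3′ on the strand of the gene. Capitals mark the consensus CArG box, the MCAT motif (CATTCC, bound by TEAD factors) and any of 4 motifs of GATA factors (AGATAA and its variant AGATAG, or TGATAA and its variant TGATAG), each searched on both strands. The regions are chr2:114052876-114053125 (minus strand) for *Actc1*, chr11:5898783-5899032 (minus strand) for *Myl7*, chr1:135836084-135836333 (plus strand, the first of 2 start sites) for *Tnnt2* and chr14:54966608-54966857 (minus strand) for *Myh6*.
Actc1: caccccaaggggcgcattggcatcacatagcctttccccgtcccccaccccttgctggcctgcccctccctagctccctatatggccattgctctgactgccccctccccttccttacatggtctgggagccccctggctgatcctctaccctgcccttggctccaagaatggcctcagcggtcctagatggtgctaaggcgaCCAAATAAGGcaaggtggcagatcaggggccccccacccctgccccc
Myl7: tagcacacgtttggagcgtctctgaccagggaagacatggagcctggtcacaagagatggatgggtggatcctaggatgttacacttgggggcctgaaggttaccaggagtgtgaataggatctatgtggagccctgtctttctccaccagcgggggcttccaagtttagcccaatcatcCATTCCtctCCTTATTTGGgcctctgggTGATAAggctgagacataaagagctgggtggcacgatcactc
Tnnt2: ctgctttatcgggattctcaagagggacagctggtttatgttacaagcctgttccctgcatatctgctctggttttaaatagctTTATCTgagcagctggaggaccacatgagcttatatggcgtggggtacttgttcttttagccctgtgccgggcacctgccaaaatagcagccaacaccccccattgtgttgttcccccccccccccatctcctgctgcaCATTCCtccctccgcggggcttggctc
Myh6: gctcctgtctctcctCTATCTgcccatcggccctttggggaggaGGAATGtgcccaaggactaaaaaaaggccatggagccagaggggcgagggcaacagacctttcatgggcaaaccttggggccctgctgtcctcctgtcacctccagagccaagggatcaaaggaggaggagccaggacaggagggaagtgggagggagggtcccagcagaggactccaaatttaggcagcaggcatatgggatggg

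The CArG box lay at -47 to -38 from the start of *Actc1* and at -61 to -52 from that of *Myl7*, where an MCAT motif lay at -70 to -65 and a GATA motif at -42 to -37. *Tnnt2* held a GATA motif at -166 to -161 and an MCAT motif at -27 to -22. *Myh6* held a GATA motif at -235 to -230 and an MCAT motif at -206 to -201. All positions count from the RefSeq start. It lay 673 bases from the Gencode gene start for *Actc1*, 320 for *Myh6*, 20 for *Tnnt2* and 0 for *Myl7*. A TATA box match (TATAAA) lay after the RefSeq start, at 34 to 39 in *Actc1* and at 2 to 7 in *Myh6*. Over all 10 genes, with 13 windows, 4 genes held an MCAT motif, 5 held any of the GATA motifs and 0 held the MEF2 motif. Among 32851 windows of the same length over all genes, 1.63% held a consensus CArG box, 14.7% an MCAT motif, 29.8% any of the 4 GATA motifs and 3.19% the MEF2 motif. None of the motifs marked in the 4 windows overlapped another. A match of letters is a description of the window and not a bound site.

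An HDR library held 17290992 to 24880385 counts and a PE2 library 38820265 to 44895615. Levels are given as CPM (a gene's counts relative to the library total), scaled by TMM factors over all 18 libraries. The level of 3 counts, used as the limit that a count of 0 allows, was 0.128 to 0.163 CPM for HDR libraries and 0.0661 to 0.0807 CPM for PE2 libraries. It covers counting error only. *Tspan2*, the targeted gene, separated the genotypes in both experiments, at 111 to 266 CPM in HDR wild type against 15.3 to 36.4 in *sg/sg* and at 183 to 292 in PE2 wild type against 11.9 to 25.3 in *peg/peg*. The summed CPM of 8 smooth muscle genes, led by *Acta2* and *Myh11*, lay between 15317 and 67135 in all libraries. The top value was that of the library labelled *peg/peg* replicate 3. These genes mark smooth muscle of any organ and not the aorta alone.

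In certain muscle and epithelial genes, 2 libraries stood apart from the rest, the library labelled *peg/peg* replicate 3 and HDR wild type 3. In the library labelled *peg/peg* replicate 3, *Actg2*, an actin of smooth muscle, was at 8973 CPM against 155 to 469 in the other 7 PE2 libraries, and *Des*, the muscle intermediate filament desmin, at 5589.6 against 89.4 to 113. HDR wild type 3 held *Actg2* at 1108 CPM against 87.0 to 191 in the other 9 HDR libraries and *Des* at 944 against 43.9 to 112. The summed CPM of a list of 5 mesothelial genes, which include *Upk3b* and *Krt19*, both also made by other epithelia, ran from 2.48 to 9.37 in PE2 wild type and from 2.07 to 472 in *peg/peg*, and from 0.797 to 58.4 in HDR wild type and 0.942 to 17.3 in *sg/sg*, with the top value of each experiment in these 2 libraries. *Upk3b* was at 204 CPM in the library labelled *peg/peg* replicate 3 and *Krt19* at 156. The summed CPM of 13 fast skeletal muscle genes ran from 17.6 to 41.1 in PE2 wild type and 19.0 to 1218 in *peg/peg*, and from 12.0 to 166 in HDR wild type and 17.8 to 110.1 in *sg/sg*. Here *Acta1*, skeletal actin, was at 759 and 76.8 CPM in the same 2 libraries and at most at 8.76 in the others, and *Ckm*, muscle creatine kinase, was at 301 and 30.6. The 13 genes did not rise together. In the library labelled *peg/peg* replicate 3, 8 of the 13 had their highest PE2 value. *Pvalb*, *Atp2a1*, *Myl1* and *Mylpf* had their lowest PE2 value there, at 0, 0.154, 0.287 and 0.970 CPM. Of 5 brown fat genes, the sum was 7.52 CPM at its lowest, in the library labelled *peg/peg* replicate 3, and 1408 at its highest in *peg/peg*, against 512 to 2111 in PE2 wild type. *Ucp1* was at 1.37 CPM in that library and *Cidea* at 3.06. HDR brown fat sums reached 1256 CPM in wild type and 1248 in *sg/sg*. Over all libraries, 3 slow skeletal genes, led by *Tnnt1* and *Tnni1*, summed to 1.09 to 9.63 CPM, and 6 lymphoid genes, led by *Rag1* and *Cd4*, to 1.38 to 14.3. Between genotypes edgeR called 0 genes of these 6 lists in either experiment, and listed at an unadjusted p under 0.05, in HDR, 6 of 12 fast skeletal and 1 of 4 mesothelial genes tested, beside 1.98% of all genes. In PE2 it listed 3 of 12 fast skeletal, 4 of 4 mesothelial, 2 of 5 lymphoid and 1 of 8 smooth muscle genes, beside 4.30%. DESeq2 called *Myh4* and *Atp2a1* of fast muscle in HDR and *Rag1* in PE2. Across the 16401 genes tested in PE2, the library labelled *peg/peg* replicate 3 had the highest value for 30.5% and the lowest for 27.2%. Over all genes HDR wild type 3 was not extreme, with the highest value for 9.24% of 16423 genes, whereas HDR wild type 6 had 18.5% and *sg/sg* 6 had 21.6%. *Actg2* and *Des* were singled out after their values were seen. *Upk1a* and *Upk2*, which encode uroplakins of the urothelium, were at 229 and 70.5 CPM in the library labelled *peg/peg* replicate 3 and at most at 15.9 and 4.61 in all others. *Hoxa13* and *Hoxd13*, Hox genes of the posterior body, were at 55.9 and 19.7 CPM there, at 9.34 and 6.65 in HDR wild type 3 and at most at 1.03 and 0.0542 in the other 16. These 4 genes were likewise singled out after their values were seen. The 2 libraries are used below under their labels. The part of all these genes in the cardiac gene levels was not tested, and the means and fitted differences that rest most on the 2 libraries are given with and without them.

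**Figure D1:**
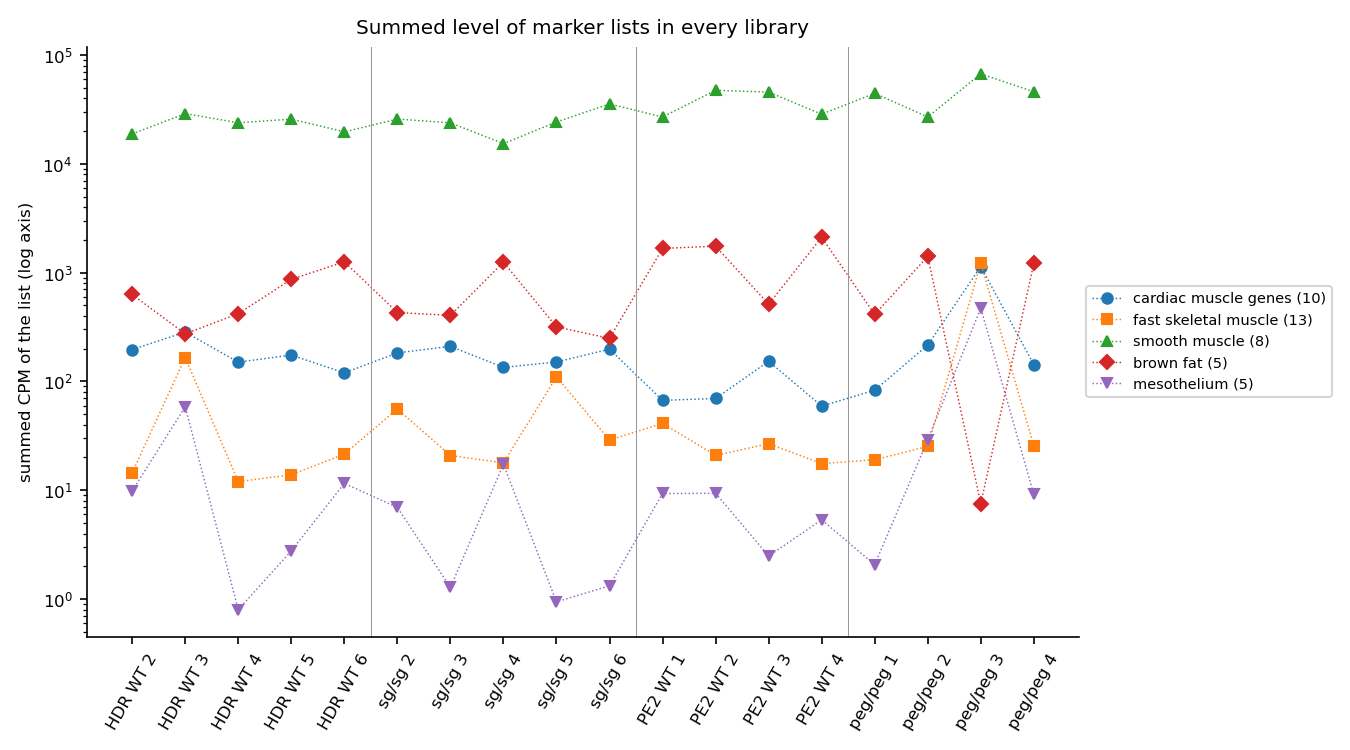
Summed CPM (log axis) of marker lists in every library, by experiment and genotype. The mesothelial and fast skeletal sums reach 472 and 1218 CPM in the library labelled *peg/peg* replicate 3. The brown fat sum is at 7.52 there. The smooth muscle sum runs from 15317 to 67135 over all libraries and is also highest in that library.

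Among the 10 cardiac muscle genes, *Ryr2* stayed within a range of less than 2-fold in 3 of the 4 groups, *Nppa* was at or close to the level of 3 counts almost everywhere, and the levels of most of the others were set by 1 or 2 libraries. HDR wild type 3 had the highest HDR value for 7 of the 10 genes (*Myh6*, *Actc1*, *Tnnt2*, *Tnni3*, *Myl7*, *Myl4* and *Csrp3*). In PE2, all 10 genes had their highest value in a *peg/peg* library. That was replicate 2 for *Myh6*, *Tnni3*, *Myl7* and *Csrp3*, the library labelled replicate 3 for *Actc1*, *Tnnt2*, *Myl4* and *Nppa*, and replicate 4 for *Myh7* and *Ryr2*. Different genes of the set thus peaked in different libraries of the same genotype. Among all 16401 genes tested in PE2, *peg/peg* 1 to 4 held the highest value for 8.10%, 8.36%, 30.5% and 9.47%. Among 16423 genes tested in HDR, wild type 3 held it for 9.24%.

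**Figure D2:**
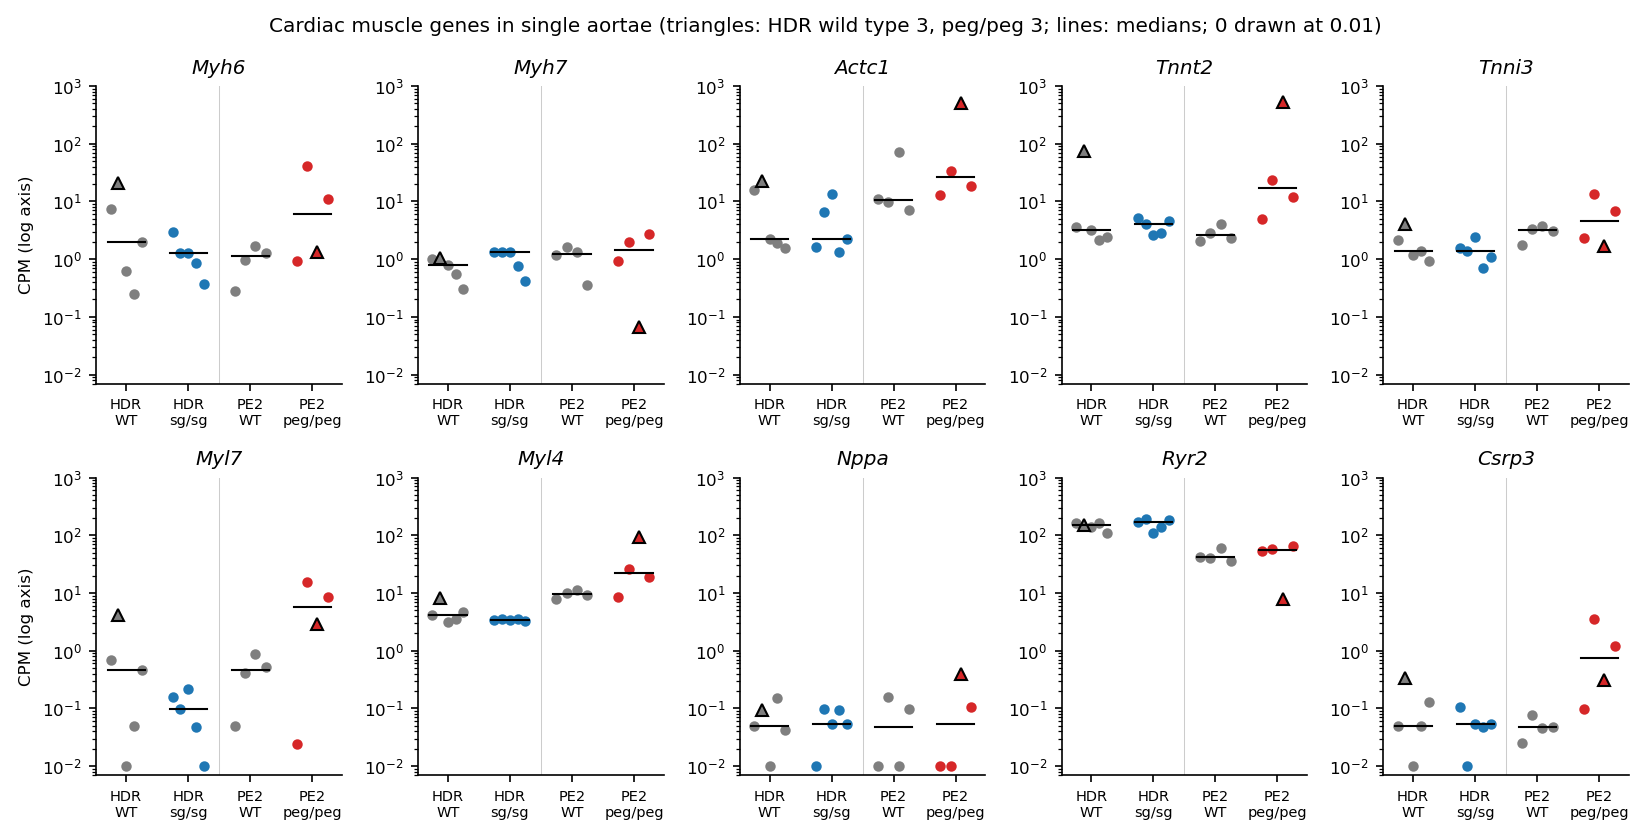
CPM (log axis) of each of the 10 cardiac muscle genes in every aorta, by experiment and genotype, with group medians as lines and a level of 0 drawn at 0.01. Triangles mark HDR wild type 3 and the library labelled *peg/peg* replicate 3. *Tnnt2* reaches 519 and 74.8 CPM in these 2 libraries, while *Myh6* peaks at 40.9 CPM in *peg/peg* replicate 2.

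The myosin heavy chains came first among the motor proteins. *Myh6*, the fast heavy chain of adult mouse heart (ENSMUSG00000040752, chr14:54941921-54966927 on GRCm38, minus strand), was at 7.44, 20.8, 0.620, 0.247 and 2.01 CPM in HDR wild types 2 to 6 and at 2.97, 1.28, 1.30, 0.847 and 0.370 in *sg/sg* 2 to 6. The PE2 values were 0.277, 0.953, 1.69 and 1.28 CPM in wild types 1 to 4 and 0.937, 40.9, 1.34 and 10.9 in *peg/peg* 1 to 4. The high libraries were HDR wild types 3 and 2 and *peg/peg* 2 and 4, and the genotypes overlapped in both experiments. The HDR means were 6.22 ± 8.63 CPM (SD, n = 5) in wild type and 1.35 ± 0.98 (n = 5) in *sg/sg*, and the PE2 means 1.05 ± 0.60 (n = 4) and 13.5 ± 18.8 (n = 4). *peg/peg* 2 alone carried 75.6% of the summed *Myh6* level of its group. Without HDR wild type 3 the wild-type mean was 2.58 ± 3.33 CPM (n = 4), and without the library labelled *peg/peg* replicate 3 the *peg/peg* mean was 17.6 ± 20.8 (n = 3).

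*Myh7* (ENSMUSG00000053093, chr14:54970684-54994626, minus strand) encodes the slow heavy chain and lies next to *Myh6*. It was low throughout, at 0.299 to 1.04 CPM in HDR wild type and 0.423 to 1.36 in *sg/sg*. In PE2 it was at 1.18, 1.6, 1.32 and 0.361 CPM in wild type and at 0.937, 1.94, 0.0661 and 2.74 in *peg/peg*, so that the library labelled *peg/peg* replicate 3 held the lowest value of all 18. The genotypes overlapped. *Myh7* did not follow *Myh6*, since 100 *Myh6* counts were accompanied by 4.76 *Myh7* counts (exact 95% interval 3.75 to 5.96) in *peg/peg* 2 and by 5.00 (3.10 to 7.67) in HDR wild type 3, but by 78.4 (54.6 to 112) in PE2 wild type 3. Part of these reads cannot be assigned with certainty, because 15.5% of the 75-base windows of the longest coding *Myh6* transcript also occur in *Myh7* transcripts, and 1149 of the 8616 exonic bases of *Myh7* overlap genes on the other strand. Whether counting used strand is not stated.

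*Actc1*, the actin of heart muscle (ENSMUSG00000068614, chr2:114047282-114053548, minus strand), whose promoter with its CArG box is printed above, was at 15.9, 22.9, 2.21, 1.88 and 1.54 CPM in HDR wild types 2 to 6 and at 1.64, 6.55, 13.5, 1.32 and 2.22 in *sg/sg*. Among PE2 libraries it was at 11.1, 9.68, 70.8 and 6.98 CPM in wild type and at 12.7, 34.3, 511 and 18.1 in *peg/peg*. The library labelled *peg/peg* replicate 3 was far above the rest and PE2 wild type 3 came next, and the genotypes overlapped in both experiments. That 1 library made up 88.7% of the *peg/peg* sum, so that the *peg/peg* mean of 144 ± 245 CPM (SD, n = 4) became 21.7 ± 11.2 (n = 3) without it, against 24.7 ± 30.8 (n = 4) in PE2 wild type. None of 1399 windows of 75 bases of the *Actc1* transcript was identical to a stretch of *Acta1*, *Acta2* or *Actg2*, the other muscle actins.

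The troponins make the filament respond to calcium. *Tnnt2*, cardiac troponin T (ENSMUSG00000026414, chr1:135836354-135852260, plus strand), was at 3.67, 74.8, 3.23, 2.13 and 2.44 CPM in HDR wild types 2 to 6 and at 5.20, 4.09, 2.60, 2.87 and 4.50 in *sg/sg*. In PE2 wild type it was at 2.06, 2.88, 4.05 and 2.29 CPM, and in *peg/peg* at 4.95, 23.1, 519 and 11.8. All 4 *peg/peg* values were above the highest PE2 wild-type value, and this was also so for the 3 that remained without the library labelled replicate 3. Of all genes tested in PE2, 2.23% had groups that did not overlap, and 4.66% without that library. Leaving a library out makes an overlap less likely, so the second result adds no support. In HDR the genotypes overlapped, and 86.7% of the wild-type sum came from wild type 3. The PE2 *peg/peg* mean was 140 ± 253 CPM (SD, n = 4) with all libraries and 13.3 ± 9.16 (n = 3) without the library labelled replicate 3, against 2.82 ± 0.89 (n = 4) in PE2 wild type. The HDR wild-type mean was 17.3 ± 32.2 (n = 5) and, without wild type 3, 2.87 ± 0.71 (n = 4), against 3.85 ± 1.10 (n = 5) in *sg/sg*.

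*Tnni3*, cardiac troponin I (ENSMUSG00000035458, chr7:4518305-4524229, minus strand), is among the genes of the set that are hardly made outside the heart. It was at 2.18, 4.11, 1.20, 1.38 and 0.941 CPM in HDR wild types and at 1.54, 1.38, 2.38, 0.706 and 1.11 in *sg/sg*, and at 1.79, 3.32, 3.80 and 3.03 in PE2 wild types and 2.33, 13.5, 1.70 and 6.88 in *peg/peg*. As for *Myh6*, *peg/peg* 2 and 4 were the high libraries, and the library labelled *peg/peg* replicate 3 was the lowest of the 8. The genotypes overlapped in both experiments. The gene shares 86 exonic bases with *Dnaaf3* on the same strand, a small part of its 2063.

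The light chains bind the neck of the heavy chain. *Myl7*, the regulatory light chain of the atria (ENSMUSG00000020469, chr11:5896637-5898782, minus strand), was at 0.694, 4.15, 0, 0.0495 and 0.470 CPM in HDR wild types and at 0.159, 0.0985, 0.217, 0.0471 and 0 in *sg/sg*. In PE2 it was at 0.0503, 0.412, 0.888 and 0.530 CPM in wild type and at 0.0240, 15.6, 2.89 and 8.50 in *peg/peg*. *peg/peg* 2, 4 and 3 lay above all PE2 wild types and *peg/peg* 1 below all of them, so the groups overlapped. *Myl4*, the essential light chain of the atria and of embryonic muscle (ENSMUSG00000061086, chr11:104550663-104595753, plus strand), was at 4.17, 8.16, 3.19, 3.51 and 4.62 CPM in HDR wild types and only between 3.23 and 3.59 in *sg/sg*. In PE2 it was at 7.82, 10.1, 11.3 and 9.08 CPM in wild type and at 8.62, 26.2, 92.1 and 18.7 in *peg/peg*. In *Myl4*, 3 of 4 *peg/peg* libraries were above every PE2 wild type, and the group mean of 36.4 ± 37.8 (SD, n = 4) was 17.8 ± 8.83 (n = 3) without the library labelled replicate 3, against 9.58 ± 1.49 (n = 4).

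*Ryr2*, the calcium release channel (ENSMUSG00000021313, chr13:11553102-12106945, minus strand), had the highest CPM of the set in most libraries. It was at 161, 147, 139, 165 and 107 CPM in HDR wild types and at 167, 191, 109.6, 141 and 186 in *sg/sg*. The PE2 wild types held 42.6, 40.5, 59.1 and 35.6 CPM and the *peg/peg* aortae 52.4, 56.7, 7.80 and 63.8. The library labelled *peg/peg* replicate 3, which held most of the *Tnnt2* and *Actc1*, was the only one of 18 below 35 CPM. The genotypes overlapped in both experiments. The *peg/peg* mean was 45.2 ± 25.4 CPM (SD, n = 4) with this library and 57.6 ± 5.78 (n = 3) without it, against 44.5 ± 10.2 (n = 4) in wild type.

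The hormone *Nppa* and the LIM protein *Csrp3* were near the limit of the depth in most libraries. *Nppa*, the atrial natriuretic peptide (ENSMUSG00000041616, chr4:148000722-148002079, plus strand), was between 0 and 0.148 CPM in HDR wild type, 0 and 0.0985 in *sg/sg*, 0 and 0.154 in PE2 wild type and 0 and 0.397 in *peg/peg*. Only the library labelled *peg/peg* replicate 3 exceeded 0.154, and 532 of the 865 exonic bases of *Nppa* overlap a gene on the other strand. *Csrp3*, a protein of the Z disc in striated muscle (ENSMUSG00000030470, chr7:48830398-48848033, minus strand), was between 0 and 0.330 CPM in HDR wild type and between 0 and 0.106 in *sg/sg*. In PE2 it was at 0.0251, 0.0772, 0.0456 and 0.0482 CPM in wild type, at or about the level of 3 counts, and at 0.0961, 3.49, 0.309 and 1.18 in *peg/peg*. All 4 *peg/peg* values were higher than all 4 of wild type, with 68.8% of the sum in *peg/peg* 2. Of the other cardiac genes, some were near that limit too, with *Nppb* at most at 0.0542 CPM, *Nkx2-5* at 0.108 and *Bmp10* at 0.265 in any of the 18 libraries, while *Ankrd1*, *Tbx5* and *Gata4* reached 31.0, 26.7 and 7.96 CPM.

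Levels of different genes can be compared only per length of transcript. The exonic length used here joins the exons of all annotated transcripts of a gene and can exceed that of 1 transcript. For *Myh7* it was 8616 bases against 6230 in the longest coding transcript. The order of genes is therefore rough. Divided by exonic length, the mean level was highest for *Actc1* in HDR wild type, at 5.49 ± 6.13 CPM per kb (SD, n = 5), followed by *Ryr2* at 5.00 ± 0.80 and *Tnnt2* at 2.23 ± 4.15. Without HDR wild type 3, *Ryr2* came first at 4.97 ± 0.91 (n = 4), *Actc1* next at 3.32 ± 4.33, and *Tnnt2* was at 0.370 ± 0.092. In *sg/sg*, *Ryr2* came first at 5.51 ± 1.18 CPM per kb and *Actc1* next at 3.12 ± 3.20. In PE2 wild type the order began with *Actc1* at 15.2 ± 19.1 CPM per kb (n = 4), *Myl4* at 2.07 ± 0.32, *Ryr2* at 1.54 ± 0.35 and *Tnni3* at 1.45 ± 0.42. The last 3 lie within each other's spread. In *peg/peg* it began with *Actc1* at 89.0 ± 151 CPM per kb, *Tnnt2* at 18.0 ± 32.7, *Myl7* at 11.5 ± 11.7 and *Myl4* at 7.85 ± 8.16, all with an SD close to or above the mean, so that these neighbours do not differ beyond their spread. Without the library labelled replicate 3, *Myl7* was at 13.7 ± 13.3 CPM per kb (n = 3), *Actc1* at 13.4 ± 6.94, *Myl4* at 3.85 ± 1.90 and *Tnnt2* at 1.71 ± 1.18.

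The 2 sets of PE2 libraries are seen best against the median of the PE2 wild types. In *peg/peg* 2, *Csrp3* was 74.6 times, *Myh6* 36.7 times, *Myl7* 33.2 times and *Tnni3* 4.25 times that median. The PE2 wild types held only 1 to 3 counts of *Csrp3* each, so all multiples of *Csrp3* are rough. In *peg/peg* 4 the same genes were raised less, with *Csrp3* at 25.2 times, *Myl7* at 18.0 times and *Myh6* at 9.80 times. *Sln*, sarcolipin, a small inhibitor of the calcium pump that is made in the atria and was named after its values were seen, went along with them, at 23.4 times in *peg/peg* 2 and 11.1 times in *peg/peg* 4. *Nppa*, also of the atria, did not, at 0 and 0.108 CPM in *peg/peg* 2 and 4. PE2 wild types held 0 to 0.154 CPM of it, and all these values are near the level of 3 counts. *Myl2*, the ventricular light chain, was lower in both, at 0.246 and 0.323 CPM against 0.478 to 0.772 in PE2 wild types. Of 14 further sarcomere genes, *Myl2* included, 8 were highest in *peg/peg* 2, beside 8.36% of all genes tested in PE2. The library labelled *peg/peg* replicate 3 was different, with *Tnnt2* at 201 times, *Casq2* (calsequestrin, the calcium store protein) at 54.7 times, *Actc1* at 49.1 times and *Myl4* at 9.61 times, whereas *Myh6* was at 1.21 times, *Tnni3* at 0.534 times, *Ryr2* at 0.188 times and *Myh7* at 0.0528 times the median. The patterns were not exclusive, since in that library *Csrp3* and *Myl7* were at 6.59 and 6.13 times, and in *peg/peg* 2 *Tnnt2* and *Actc1* were at 8.93 and 3.30 times.

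**Figure D3:**
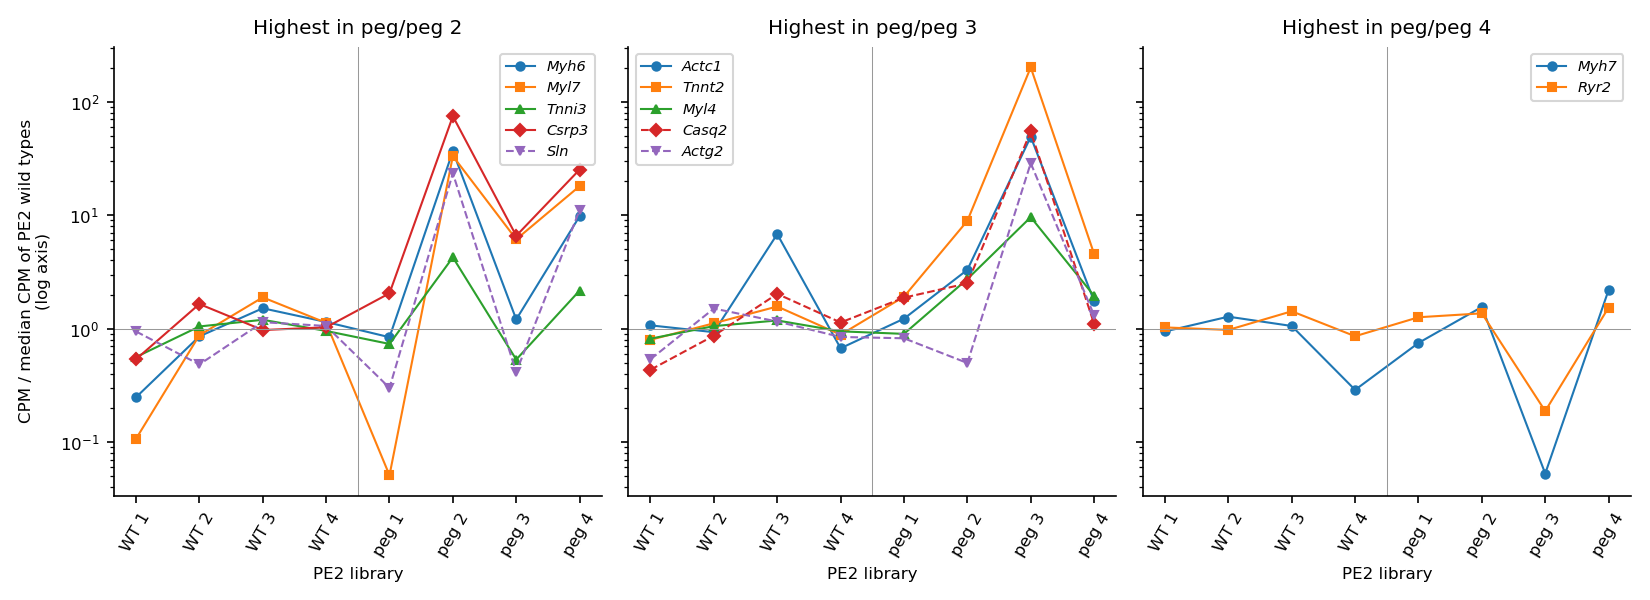
Level of selected genes in the 8 PE2 libraries, as a multiple of the median of the 4 PE2 wild types (log axis). *Csrp3*, *Myh6*, *Myl7* and *Tnni3* rise to 74.6, 36.7, 33.2 and 4.25 times in *peg/peg* 2, and *Tnnt2* and *Actc1* to 201 and 49.1 times in the library labelled *peg/peg* replicate 3. The multiples of *Csrp3* are rough, as each PE2 wild type holds 1 to 3 counts of it.

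Ratios of counts within a library do not depend on scaling between libraries. They set the library labelled *peg/peg* replicate 3 apart from *peg/peg* 2 and 4, but not *peg/peg* 2 from all wild types. For 100 counts of *Myh6* there were 38.3 of *Myl7* (exact 95% interval 34.9 to 42.0) in *peg/peg* 2, 77.8 (67.0 to 90.4) in *peg/peg* 4, 215 (157 to 296) in the library labelled *peg/peg* replicate 3 and 9.33 (4.98 to 16.2) in HDR wild type 2. PE2 wild types 2 to 4 held 43.2 (22.5 to 79.7), 52.7 (34.8 to 78.7) and 41.5 (24.0 to 69.4), which overlap *peg/peg* 2. These intervals cover counting error only. For 100 counts of *Actc1* there were 67.2 of *Tnnt2* (61.8 to 73.1) in *peg/peg* 2 and 64.9 (57.4 to 73.3) in *peg/peg* 4, which overlap. The same ratio was 102 (99.8 to 104) in the library labelled *peg/peg* replicate 3, 326 (295 to 362) in HDR wild type 3 and 5.72 (4.89 to 6.66) in PE2 wild type 3, the library with the highest *Actc1* among wild types. *Csrp3* was at 8.55 (7.15 to 10.2) per 100 *Myh6* counts in *peg/peg* 2, at 10.8 (7.75 to 14.8) in *peg/peg* 4 and at 1.59 (0.636 to 3.31) in HDR wild type 3.

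For the genotypes within each experiment, edgeR's quasi-likelihood fit gave the size of each difference. In HDR the fitted log2 fold change of *sg/sg* over wild type was -2.18 ± 0.98 (SE) for *Myh6* and -2.15 ± 0.98 for *Tnnt2*, followed by -0.80 ± 0.87 for *Actc1*, -0.45 ± 0.25 for *Myl4* and -0.44 ± 0.44 for *Tnni3*. *Myh7* was at 0.51 ± 0.41 and *Ryr2* at 0.15 ± 0.16. *Myl7*, *Nppa* and *Csrp3* did not pass the filter on low counts. Without HDR wild type 3 these values became -0.91 ± 0.84 for *Myh6*, 0.44 ± 0.27 for *Tnnt2*, -0.06 ± 0.86 for *Actc1*, -0.16 ± 0.18 for *Myl4* and 0.02 ± 0.39 for *Tnni3*, so that *Tnnt2* and *Tnni3* changed sign. For *Myh7* and *Ryr2* they were 0.68 ± 0.45 and 0.16 ± 0.18.

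In PE2 the log2 fold change of *peg/peg* over wild type was 5.64 ± 1.57 for *Tnnt2*, 3.87 ± 1.40 for *Myl7*, 3.73 ± 1.25 for *Myh6*, 2.58 ± 1.37 for *Actc1*, 1.94 ± 0.65 for *Myl4* and 1.06 ± 0.64 for *Tnni3*. *Myh7* was at 0.37 ± 0.87 and *Ryr2* at 0.04 ± 0.53. *Nppa* and *Csrp3* did not pass the filter. Without the library labelled *peg/peg* replicate 3, *Tnnt2* was at 2.25 ± 0.48, *Actc1* at -0.15 ± 0.82 and *Myl4* at 0.91 ± 0.33, while *Myl7*, *Myh6* and *Tnni3* were at 4.10 ± 1.37, 4.09 ± 1.08 and 1.36 ± 0.53. *Myh7* and *Ryr2* were then at 0.76 ± 0.53 and 0.38 ± 0.16.

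At an adjusted p under 0.05, edgeR called 0.00609% of 16423 genes in HDR and 0.00610% of 16401 in PE2, in each case 1 gene, *Tspan2*, and 0 of the 7 and 0 of the 8 cardiac muscle genes that passed the filter. At an unadjusted p under 0.05 it listed 325 genes in HDR and 706 in PE2, and DESeq2 called 0.00933% and 0.149% of the genes it tested, 4 and 30 genes. In PE2, 1 of these 30 was *Csrp3*, which edgeR's filter had left out, and nothing is read from this, since the choice of the genes used the same contrast. With all libraries, DESeq2 gave no p for *Tnnt2* in either experiment and for *Actc1* in PE2. The call of *Tspan2* in PE2 (log2 fold change -3.45 ± 0.29, edgeR adjusted p = 0.0292) was lost when any 1 of 7 of the 8 libraries was left out in turn. It held without the library labelled *peg/peg* replicate 3, where 2 genes were called. In group means, all 10 cardiac muscle genes were higher in *peg/peg* than in wild type, and 8 of 10 without the library labelled replicate 3, where *Actc1* and *Nppa* were lower. For *Actc1* this direction rests on PE2 wild type 3, without which the wild-type mean was 9.26 ± 2.10 CPM (n = 3). In HDR, 8 of 10 means were lower in *sg/sg*, and 7 of 10 without wild type 3. The medians went the other way in HDR, with 6 of 10 higher in *sg/sg* and 7 of 10 without wild type 3. In *peg/peg*, 10 of 10 medians were higher, and 9 of 10, *Actc1* included, without the library labelled replicate 3. Among all genes tested the mean was higher in the mutant for 46.2% in HDR and 49.9% in PE2, and for 47.9% and 45.3% without the 2 libraries. The median was higher for 43.6% in HDR and 47.4% in PE2, and for 43.6% and 46.1% without them. The groups did not overlap for 0 of 10 genes in HDR, beside 0.292% of all genes tested, and for 2 of 10, *Tnnt2* and *Csrp3*, in PE2, beside 2.23%. Without the library labelled *peg/peg* replicate 3, *Tnnt2* and *Csrp3* again did not overlap, beside 4.66% of all genes. For *Csrp3* the nearest libraries were *peg/peg* 1 with 4 counts and PE2 wild type 2 with 3. The choice of the genes rested on these same values.

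**Figure D4:**
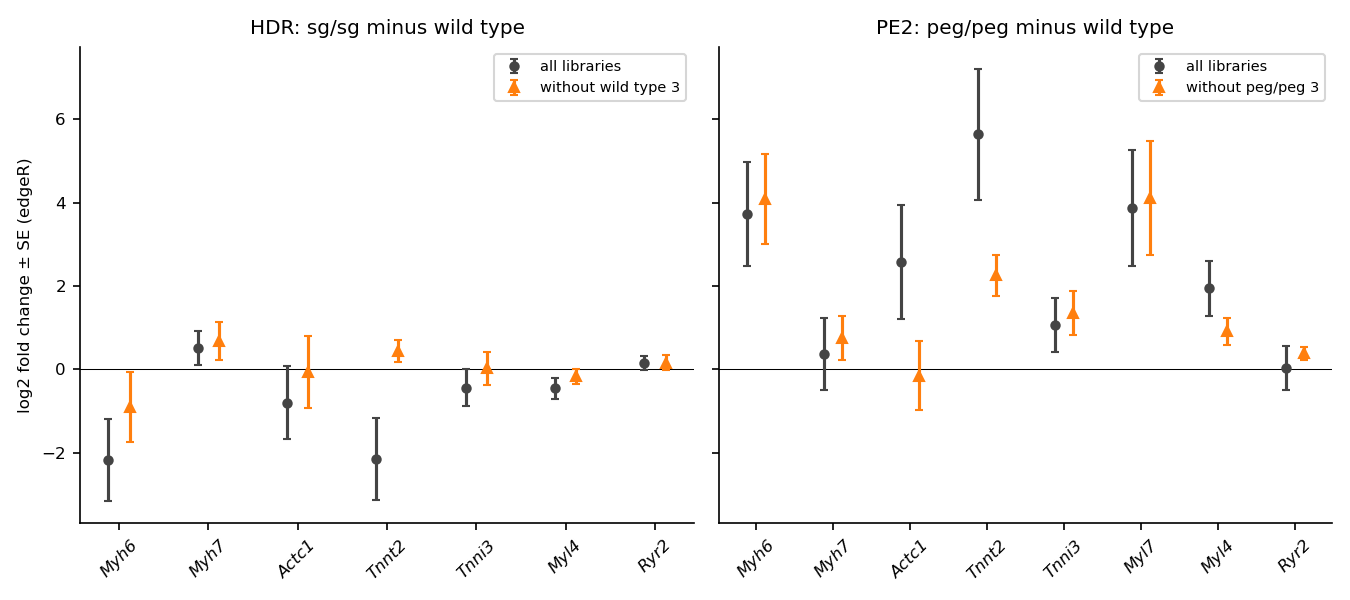
Fitted log2 fold change (± SE, edgeR) of homozygous mutant over wild type for the cardiac muscle genes that passed the filter, in HDR and PE2, with all libraries and without the library that stood apart. In PE2, *Tnnt2* moves from 5.64 to 2.25 and *Actc1* from 2.58 to -0.15, whereas *Myh6* stays at 3.73 and 4.09. In HDR, *Tnnt2* moves from -2.15 to 0.44.

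The biological coefficient of variation fitted by edgeR ran from 0.201 for *Ryr2* and 0.289 for *Myl4* to 0.976 for *Myh6* in HDR, where the median of all genes was 0.225. In PE2 it ran from 0.521 for *Ryr2* to 1.18 for *Myl7*, beside a median of 0.275. Variation between these libraries was part of the choice of the genes, so nothing is read from these values.

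Wild-type aortae of the 2 experiments were compared with each other. The choice of the genes had not used this contrast, but it had used their variation between libraries. The question is how far the level in an unedited aorta depends on the experiment. Age, listed strain and depth differ with the experiment and cannot be told apart. *Ryr2* was lower in PE2 than in HDR wild types, at 35.6 to 59.1 against 107 to 165 CPM with no overlap, a log2 fold change of -1.70 ± 0.39 (edgeR adjusted p = 0.00140, n = 4 and 5). It was the only 1 of the 8 tested genes called and the only 1 of the 10 whose groups did not overlap. Of all 18094 genes, 55.7% were called in this comparison and 49.2% had groups that did not overlap. The share for the cardiac muscle genes is thus below the background. A wide spread between libraries, for which the genes were chosen, lowers both shares, so nothing is read from this.

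The other 7 tested genes did not pass. *Tnnt2* was at -2.62 ± 1.29 (edgeR adjusted p = 0.0943) and *Myh6* at -2.57 ± 1.19 (adjusted p = 0.0752) with all libraries, and at -0.05 and -1.32 without HDR wild type 3 and the library labelled *peg/peg* replicate 3. *Myl4* was at 1.01 ± 0.46 (adjusted p = 0.0723), with PE2 wild types at 7.82 to 11.3 CPM against 3.19 to 8.16. It passed without those libraries, at 1.29 ± 0.25 (edgeR adjusted p = 0.000366), where *Ryr2* was at -1.71 ± 0.20 (adjusted p = 3.03e-06). *Actc1* was at 1.47 ± 1.13 (edgeR adjusted p = 0.285), *Myl7* at -1.19 ± 1.23 (0.435), *Tnni3* at 0.60 ± 0.55 (0.376) and *Myh7* at 0.59 ± 0.67 (0.472). DESeq2 called *Myh6* besides *Ryr2*, with adjusted p = 0.0361 and 1.09e-05, beside 45.5% of all genes that it tested.

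**Figure D5:**
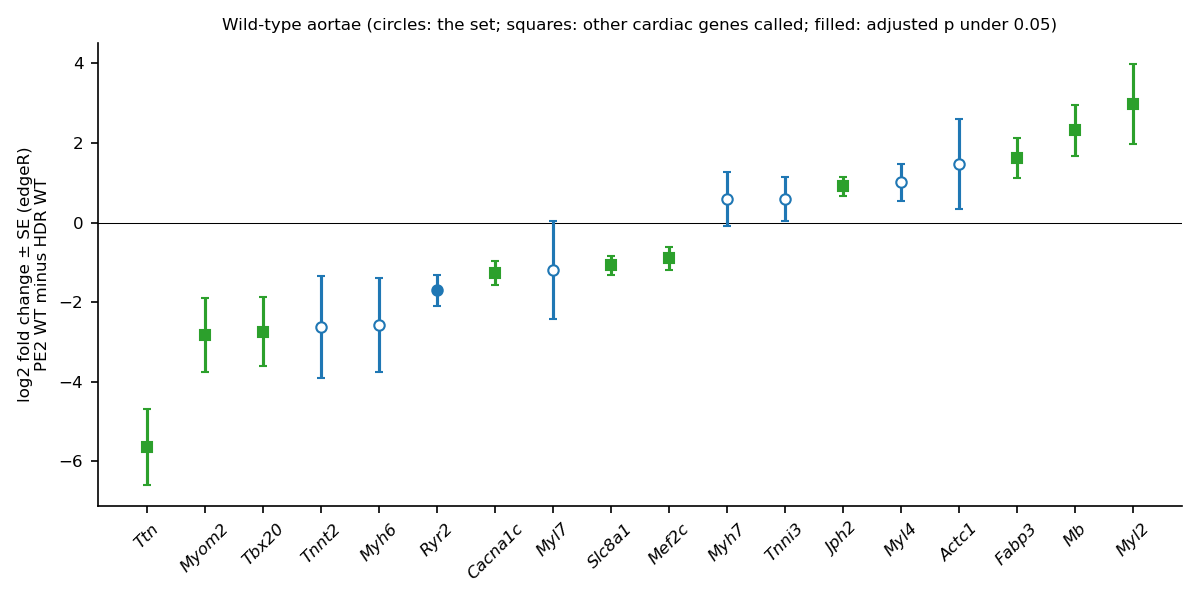
Log2 fold change (± SE, edgeR) of PE2 over HDR wild-type aortae. Circles show the cardiac muscle genes that passed the filter and squares the other cardiac genes called, filled where the adjusted p is under 0.05. *Ryr2* lies at -1.70 and is the only filled circle, and *Ttn* at -5.63 is the lowest square.

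A further 43 genes of heart muscle, in 5 lists, were looked at for the same comparisons. In the wild types, 35 of the 43 were tested and 10 called, a share below the 55.7% of all 18094 genes. Of the 10, 4 were higher and 6 lower in PE2. The median log2 fold change was -0.07 over the 35 and 0.00 over all genes. The 4 were *Myl2*, the ventricular light chain, at 2.98 (edgeR adjusted p = 0.0185), the oxygen store *Mb* at 2.32 (0.00526), the fatty acid carrier *Fabp3* at 1.62 (0.0111) and *Jph2*, which ties the plasma membrane to the calcium store, at 0.91 (0.00438). The 6 were *Ttn*, the giant filament titin, at -5.63 (edgeR adjusted p = 8.92e-05), the M-band protein *Myom2* at -2.82 (0.0153), the transcription factors *Tbx20* at -2.75 (0.0125) and *Mef2c* at -0.90 (0.0142), the calcium channel *Cacna1c* at -1.26 (0.00182) and the exchanger *Slc8a1* at -1.08 (0.000778). *Ttn* lay between 10.7 and 80.0 CPM in HDR libraries and between 0.168 and 7.09 in PE2 libraries. Without HDR wild type 3, 9 were called, all but *Myom2*. Without that library and the library labelled *peg/peg* replicate 3, *Myom2* was at -2.04 (edgeR adjusted p = 0.0720). *Myom2* was at 0 to 4 counts in PE2 wild types and *Myl2* at 0 to 5 counts in HDR wild types. Of the other muscle lists, *Acta2* at 1.21 (edgeR adjusted p = 0.00470) and *Tagln* at 1.15 (0.00253) of smooth muscle, *Pvalb* at 6.21 (0.00287) and *Mylpf* at 1.24 (0.0357) of fast muscle and *Tnnt1* at 1.82 (0.000562) of slow muscle were higher in PE2 wild types. *Mylpf* did not pass without the 2 libraries that stood apart (edgeR adjusted p = 0.0511), and *Pvalb* was at 0 to 3 counts in HDR wild types. Of the brown fat, mesothelial and lymphoid lists, 0 genes were called.

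Between genotypes, edgeR called 0 of the 29 tested in HDR and 0 of the 33 tested in PE2, with 3 and 6 at an unadjusted p under 0.05. DESeq2 called 0 of the 41 and 0 of the 36 genes to which it gave an adjusted p, and, among the genes that edgeR tested, gave none for *Casq2* and *Tbx5* in either experiment or for *Trdn* and *Hand2* in PE2. In PE2, 24 were fitted as higher and 9 as lower in *peg/peg*, with a median log2 fold change of 0.39, beside 0.01 over all genes. In HDR, 19 were higher and 10 lower, with a median of 0.11, beside 0.00. All adjusted p-values of the genes named next were 0.861 or more in PE2 and 1.00 in HDR (edgeR). In the sarcomere list the largest PE2 values were 2.44 ± 1.12 for *Ttn*, 1.64 ± 0.54 for *Tnnc1* (cardiac troponin C) and 1.21 ± 0.70 for *Mybpc3* (cardiac myosin-binding protein C). Among calcium and ion handling genes they were 4.20 ± 1.58 for *Trdn* (triadin, an anchor of the release channel), 3.77 ± 1.36 for *Casq2* and 0.39 ± 0.27 for *Slc8a1*. *Trdn* and *Casq2* were at 34.6 and 127 CPM in the library labelled *peg/peg* replicate 3, and their fitted values were 0.74 each without it.

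Among the transcription factors of the heart, *Tbx20* was at 3.02 ± 1.14, *Hand2* at 2.88 ± 1.14 and *Tbx5* at 2.53 ± 1.29 in PE2. *Hand2* was at 4.30, 6.42, 46.0 and 3.36 CPM in *peg/peg* 1 to 4 and *Tbx5* at 0.696, 0.517, 26.7 and 1.18. Without the library labelled replicate 3 the 3 values were 1.42, 1.20 and -0.67. Of the hormone and stress list, *Ankrd1* was at 1.69 ± 0.57 and *Corin*, the protease that activates natriuretic peptide, at 0.51 ± 0.51, and of the energy list *Cox6a2* was at 2.04 ± 1.03, *Fabp3* at -0.92 ± 0.59 and *Cox8b* at -0.91 ± 1.07. *Cox6a2*, a subunit of the respiratory chain in striated muscle, was at 0.432, 3.54, 0.0661 and 1.13 CPM in *peg/peg* 1 to 4, high in the same 2 libraries as *Myh6*.

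In HDR the largest values were 1.09 ± 0.47 for *Ttn*, 0.28 ± 0.16 for *Myom1* and -0.26 ± 0.39 for *Tnnc1* in the sarcomere list, and -2.38 ± 0.90 for *Casq2*, -1.22 ± 0.96 for *Trdn* and 0.28 ± 0.27 for *Pln* among calcium handling genes. *Casq2* was at 24.8 CPM in wild type 3 and between 0.901 and 1.83 in the other 9 libraries, and without wild type 3 its value was -0.23 and that of *Trdn* 0.67. *Corin* was at 1.25 ± 0.43 and *Ankrd1* at -0.39 ± 0.62. The transcription factors *Hand2*, *Tbx5* and *Tbx20* were at -1.33 ± 0.81, -0.82 ± 0.61 and -0.40 ± 0.45, and at -0.30, 0.26 and 0.23 without wild type 3. *Fabp3* was at 0.62 ± 0.38, *Cox7a1* at -0.61 ± 0.45 and *Cox8b* at -0.59 ± 0.49.

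The genes whose levels followed a cardiac muscle gene most closely were found by Spearman correlation of CPM over the libraries of 1 experiment, among all genes that passed the filter. The libraries share depth and make-up, and with so few of them a high value is a description only. Ties were common and were broken by Pearson correlation of log2 CPM. In PE2, over 8 libraries, *Mybpc3* was nearest to *Myl7* (rho = 1) and 1 of 3 tied for *Myh6* (0.952), *AW209491* to *Tnnt2* (1), *Gna13* to *Myl4* (1), *Rc3h2* to *Actc1* (0.976, 1 of 3 tied), and *Pla2g4c* to *Tnni3*, *Pfdn6* to *Myh7* and *Fgf2os* to *Ryr2* (each 0.976, 1 of 4 tied). Within the set, *Myh6* and *Myl7* had rho = 0.952, *Myl7* and *Myl4* 0.881, *Tnnt2* and *Myl4* 0.857, *Myh7* and *Tnni3* 0.857, *Myh6* and *Myl4* 0.833, and *Tnnt2* and *Actc1* as well as *Ryr2* and *Myh7* 0.786, so that *Myl4* went with genes of both patterns. In HDR, over 10 libraries, the nearest were *Gm38197* to *Myh7* (0.988), *Sf3a1* to *Tnnt2* (0.976, 1 of 2 tied), *Sipa1l1* to *Myh6*, *Gm37060* to *Actc1*, *Gm15538* to *Tnni3* and *Rcsd1* to *Ryr2* (each 0.964) and *Mst1r* to *Myl4* (0.952, 1 of 2 tied).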

How the data were processed

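Single aortae gave 18 libraries. The authors deposited, per experiment, raw counts per gene symbol, made with STAR 2.7.0f on GRCm38 and featureCounts (Subread 1.6.4), per the submitters' processing notes; the strand setting is not given in the sources used here. The labels and the methods differ on library kit. Unused columns of per-sample values numbered 0. Groups came from labels and column names. Replicates are separate mice by the labels' design.

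Counts were tested in edgeR 4.0.16 (R 4.3.3; TMM, filterByExpr, quasi-likelihood test, Benjamini-Hochberg adjusted p under 0.05), each genotype contrast alone and the wild types in 1 fit of 4 groups. DESeq2 1.42.0 was the alternative. The fits were tested on simulated data. The 10 genes, the lists of other cardiac, skeletal, smooth muscle, brown fat, mesothelial and lymphoid genes, and the rules were chosen with earlier results of these data known. Named were the 10 genes, *Tspan2*, called genes of the lists, up to 3 further cardiac genes per list and contrast by size, the top 2 genes of other lists by mean CPM, and the nearest gene to each. Alternatives without the 2 libraries that stood apart, other than leaving out each library in turn, were chosen after seeing the data. Positions are from Gencode M21, whereas the authors counted with M22.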

Additional observations from a re-analysis of the deposited data

Results flagged for a closer look

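In 6 of the 36 pairs of a cardiac muscle gene and a group, 1 library lay far from the others of its group, by the gap to its nearest neighbour over the whole range of the group (chance gives this in about 1 in 20 groups of genes not chosen for it, whereas these genes were chosen for varying between libraries, so the number of such values is a description). The gap was 0.979 of the range for *Tnnt2* in HDR wild type 3, at 74.8 CPM, and 0.965 for *Tnnt2* in the library labelled *peg/peg* replicate 3, at 519 CPM. For *Actc1* it was 0.957 in the library labelled *peg/peg* replicate 3, at 511 CPM, and 0.935 in PE2 wild type 3, at 70.8 CPM. In HDR wild type 3 it was 0.833 for *Myl7*, at 4.15 CPM, and 0.713 for *Myl4*, at 8.16 CPM. All but the value of PE2 wild type 3 lie in the 2 libraries with high *Actg2*, *Des*, *Upk3b* and *Krt19*, whose part in the result was not tested. PE2 wild type 3 had no such profile, with *Actg2* between 155 and 469 CPM and *Des* between 89.4 and 113, as in the other PE2 libraries. *Myh6*, *Tnni3* and *Csrp3* gave no such library in *peg/peg*, where replicates 2 and 4 were both high.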

How the results depend on the processing

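Over 221 alternative values of the cardiac muscle genes' genotype differences, 212 moved by less than 1 SD of the replicates and 9 moved further, for *Tnnt2*, *Actc1* and *Myl4*. That SD included the 2 libraries that stood apart, and the genes were chosen for varying between libraries. It is therefore wide, and the 212 do not measure stability. The HDR value of *Myh6*, for example, went from -2.18 to -0.91 without wild type 3. Of 107 alternative values between wild types, 3 changed sign: *Myl7* was at 0.62 without HDR wild type 3 and at 0.62 without it and the library labelled *peg/peg* replicate 3, and *Actc1* at -0.021 without PE2 wild type 3. Over single libraries left out, *Actc1* ran from -0.021 to 2.19 and *Myl7* from -1.77 to 0.62. The cause was not tested. The number of genes called in HDR, 1, was 4 by DESeq2, 4 with no filter, 6 by DESeq2 without wild type 3, and 1 to 1 over single libraries left out. In PE2 the 1 gene called became 30 by DESeq2, 99 by DESeq2 without the library labelled *peg/peg* replicate 3, 0 with sex as a covariate, 0 to 2 over single libraries left out, and 0 with the replicate block, where *Tnnt2* was at 3.21 ± 1.07. Same-numbered PE2 libraries correlated at -0.26 to -0.04 in their deviations, and differently numbered ones at -0.30 to 0.43. So few values cannot decide whether the replicate numbers pair the mice. In HDR, no paired analysis was possible because the column numbers could not be tied to labelled replicates. Other cardiac genes called in PE2, 0, became 1 (*Sln*) by DESeq2 without the library labelled *peg/peg* replicate 3, which also called *Tnnt2* and *Csrp3*. Of the 10 genes, the 1 called between wild types became 2 by DESeq2, 2 without the 2 libraries that stood apart, and 1 to 2 over single libraries left out (*Myl4* without HDR wild type 3, *Myh6* without HDR wild type 5). *Ryr2* was called under every alternative run. Depth limits *Nppa*, *Csrp3* and *Myl7*, which lie near 3 counts in many libraries.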
